A study of Mus musculus with 64 samples.

Results

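Interferon-stimulated genes listed apart from the guanylate-binding and immunity-related GTPases and the OAS family were followed across mouse colon. They were 35 genes taken by name out of the 35534 genes of each deposited table. Ifi47, an immunity-related GTPase by family, is among them all the same. All 35 were found in both tables, 1 for specific pathogen free (SPF) mice, which carry a gut microbiota, and 1 for germ-free (GF) mice, raised without microbes. All 35 also passed the filter on low counts in both tables, where 16938 SPF genes and 16951 GF genes were tested. The genes were taken by name with no threshold on their values, but earlier results of these data were known when the list was made.

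Whole colon came from wild-type Swiss Webster mice, an outbred stock, aged 8 to 12 weeks and kept under 12 h of light and 12 h of dark. Vancomycin mice had 2.5 mg of the antibiotic in 100 µl of PBS at each intraperitoneal injection, and PBS mice had 100 µl of PBS alone. There were 2 injections on each of 3 days and a last one on day 4. GF mice of both treatments were moved out of sterile isolators into closed cages for the injections. Tissue was collected at zeitgeber time (ZT) 5, 11, 17 or 23, counted in hours from lights on, so that vancomycin and PBS at 4 times in SPF and GF mice made 16 groups of 4 libraries. Nothing in the labels ties each library to its own animal. The p-values therefore rest on the spread among libraries of a group, part of which may be technical.

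Interferons are secreted proteins that warn cells of infection. Type I and type III interferons signal through JAK kinases to a complex with STAT2 and IRF9 that binds promoters of antiviral genes, and several of the genes here also answer to interferon gamma. In the gut, interferon-stimulated genes are known to be expressed at a low level without infection, in the epithelium and in immune cells.

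The complex with STAT2 and IRF9 binds an element built on repeated GAAA, and the promoters below show where letters of that kind stand in genes whose values are given later. Promoters were taken from the RefSeq table of build GRCm38.p6, as 250 bases before to 50 after each start, which is another build than the one named for the counts. Of the 35 genes 28 matched, with 33 promoters. GAAA followed by any 2 bases and GAAA again, on either strand, stood in 10 of the 33 promoters (30.3%), against 3.44% of all 32851 promoters of the same length. These were Bst2, Eif2ak2, Ifih1, Ifit1, Ifit3, Ifit3b, Isg15, Rsad2, Stat2 and Trim21. A match is a description of letters, not a shown binding site. The 250 bases before the start are printed 5′ to 3′ on the gene's strand, with GAAA pairs (TTTC pairs on the other strand) in capitals, for Bst2 (chr8:71537473-71537722, minus strand), Rsad2 (chr12:26456453-26456702, minus), Ifit3 (chr19:34583279-34583528, plus), Ifit3b (chr19:34607707-34607956, plus) and Irf7 (chr7:141266425-141266674, minus), the last as one with no pair in this window.
Bst2: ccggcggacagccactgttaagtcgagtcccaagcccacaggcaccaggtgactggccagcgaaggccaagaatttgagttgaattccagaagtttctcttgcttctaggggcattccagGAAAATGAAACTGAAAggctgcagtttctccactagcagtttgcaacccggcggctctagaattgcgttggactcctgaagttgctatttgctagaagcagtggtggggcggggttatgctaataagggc
Rsad2: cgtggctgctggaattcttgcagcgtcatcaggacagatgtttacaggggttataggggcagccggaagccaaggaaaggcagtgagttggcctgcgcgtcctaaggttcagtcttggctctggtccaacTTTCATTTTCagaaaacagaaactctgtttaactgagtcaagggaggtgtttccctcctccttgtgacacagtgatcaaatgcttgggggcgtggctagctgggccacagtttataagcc
Ifit3: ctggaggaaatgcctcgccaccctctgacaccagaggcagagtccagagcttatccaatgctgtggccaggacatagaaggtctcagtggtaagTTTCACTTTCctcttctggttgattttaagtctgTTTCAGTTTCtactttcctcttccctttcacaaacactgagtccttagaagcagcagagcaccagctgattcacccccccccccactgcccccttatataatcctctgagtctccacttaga
Ifit3b: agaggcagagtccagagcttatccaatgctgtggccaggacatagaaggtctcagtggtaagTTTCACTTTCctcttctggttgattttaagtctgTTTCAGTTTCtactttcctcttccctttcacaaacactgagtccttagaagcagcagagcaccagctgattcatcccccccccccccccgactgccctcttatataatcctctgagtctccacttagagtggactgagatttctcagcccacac
Irf7: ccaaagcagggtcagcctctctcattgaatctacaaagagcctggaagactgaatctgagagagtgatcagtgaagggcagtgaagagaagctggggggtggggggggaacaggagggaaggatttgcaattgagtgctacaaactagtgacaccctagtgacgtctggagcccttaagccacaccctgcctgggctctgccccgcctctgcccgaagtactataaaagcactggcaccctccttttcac

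Bst2 holds 2 overlapping pairs, Rsad2 holds 1, and Ifit3 and Ifit3b hold 2 each. The Ifit3 and Ifit3b promoters share an unbroken run of 169 bases. Shifted by 32 bases against each other they are identical at 188 of 218 positions (86.2%). Reads of 75 cycles from these near-identical copies can be split between them by the counting, so their separate values are uncertain. Sp100 has partial copies in the mouse genome and shares that limit.

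Libraries held 10044032 to 13615804 estimated counts in the SPF table and 10513966 to 15736087 in the GF table. Levels are given as TMM-scaled CPM, a share of each library, which do not correct for transcript length, so they compare groups and not genes. Lymphocyte markers varied between libraries of the same group, with the mean log2 CPM of T and NK cell markers (18 tested in SPF, 16 in GF) at -0.03 to 4.18 in SPF vancomycin, -0.48 to 3.49 in SPF PBS, -0.72 to 3.17 in GF vancomycin and -1.1 to 4.23 in GF PBS libraries. Epithelial markers were high in every library (mean log2 CPM 9.65 to 11.3). Colon position varied more among GF than SPF libraries by the mean log2 CPM of 6 distal Hox genes. This distal Hox mean was 3.47 to 4.83 in SPF vancomycin and 3.01 to 4.91 in SPF PBS libraries. It was 0.17 to 4.89 in GF vancomycin and 0.40 to 3.98 in GF PBS libraries. The 4 Y-linked genes were low (mean log2 CPM under 3) in 9 of 16 GF vancomycin libraries and 2 of 16 GF PBS libraries, and in 0 of 32 SPF libraries. The level was -0.33 to 1.36 in these 11 GF libraries and 5.17 to 6.18 in the other GF libraries. The low libraries were thus spread unevenly over the GF treatments and between SPF and GF colon, and the labels give no sex. The part of this in the GF results was not tested beyond a fit with the Y-linked level as a covariate. SPF minus GF was fitted without that covariate. None of the 11 interferon genes listed, Ifnb1 and Ifng among them, passed the filter on low counts in either table. In whole tissue, fewer cells of a type and less RNA per cell cannot be told apart.

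In SPF colon the interferon-stimulated genes were, on balance, higher after vancomycin. Over all 4 times 32 of 35 had a positive log2 fold change, with a median of 0.39 against -0.0040 over all genes. Only Usp18 passed the test, a protease that removes ISG15 from proteins and dampens the type I interferon receptor. edgeR's quasi-likelihood test with Benjamini-Hochberg adjustment called 0.378% of all genes higher and 1 of the 35. At an unadjusted p under 0.05, 24 of the 35 were higher and 0 lower, against 7.57% of all genes higher. The 35 are co-regulated genes in the same libraries, so this count is no replicate of the comparison.

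**Figure D1:**
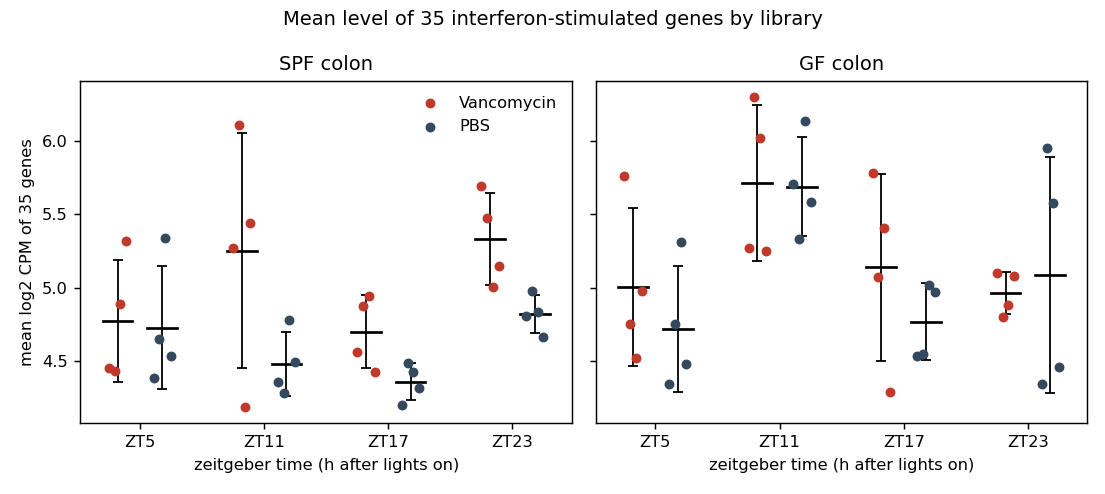
Mean log2 CPM of the 35 genes in each library (points) by zeitgeber time, vancomycin left of PBS, with the group mean (bar) and SD over 4 libraries. At SPF ZT11 the vancomycin libraries span 4.18 to 6.11, while in GF colon both ZT11 groups lie above 5.25.

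The mean log2 CPM of the 35 genes gives the same difference by time and library. In SPF vancomycin colon it was 4.77 ± 0.42 at ZT5, 5.25 ± 0.80 at ZT11, 4.70 ± 0.25 at ZT17 and 5.33 ± 0.31 at ZT23 (SD, n = 4 libraries). In SPF PBS colon it was 4.73 ± 0.42 at ZT5, 4.48 ± 0.22 at ZT11, 4.36 ± 0.13 at ZT17 and 4.82 ± 0.13 at ZT23. The group means were closest at ZT5, where PBS replicate 3, at 5.34, was the highest of its group for 32 of the 35 genes and the other PBS libraries were at 4.39 to 4.65. They were farthest apart at ZT11, where the spread among vancomycin libraries was also the widest of the SPF groups. At ZT23 all 4 vancomycin libraries lay above all 4 PBS libraries.

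At ZT11 the 4 SPF vancomycin libraries had means of 5.27, 6.11, 4.18 and 5.44, against 4.36, 4.28, 4.78 and 4.49 in the PBS libraries. Replicate 2 was the highest of its group for 30 of the 35 genes, and replicate 3 the lowest for 33, below every PBS library in its mean. The same 4 vancomycin libraries had T and NK cell marker means of 0.50, 4.18, -0.03 and 2.29, against -0.48, 2.12, -0.13 and 0.01 in PBS. The library highest for the 35 genes was thus the highest for T and NK cell markers and the one lowest for the genes was the lowest, while PBS replicate 2, at 2.12 for these markers, was the lowest of its group for the 35 genes. Other SPF groups differed in this. PBS ZT17 replicate 2 was the highest of its group for both (1.49 and 4.49). PBS ZT5 replicate 3 was the lowest for the markers (0.23) and the highest for the genes (5.34). PBS ZT23 replicate 4 was the highest for the markers (3.49) and the lowest for the genes (4.66). Over all times 18 of 18 T and NK cell markers had a positive SPF fold change (median 0.87, 1 called higher, against 0.378% of all genes), as did 12 of 12 B cell markers (median 0.69, 0 called) and 13 of 14 macrophage and dendritic cell markers (median 0.19, 0 called). Of 10 colon epithelium markers 8 were negative (median -0.19, 1 called lower, against 0.431% of all genes). All 8 smooth muscle markers were negative (median -0.085, 0 called). The summed T and NK cell marker level was 20.9 to 653 CPM in SPF vancomycin and 15.6 to 419 CPM in SPF PBS libraries, and none of these 18 markers was below the filter. With the T and NK cell marker mean as a covariate the median of the 35 genes was 0.28 and Usp18 was no longer called (0.70, adjusted p = 0.241). The call was also lost with every other covariate tried and in 13 of 32 fits that left out 1 library, so its loss is not particular to these markers. The part of cell makeup in the difference was not tested beyond the fits with covariates.

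**Figure D2:**
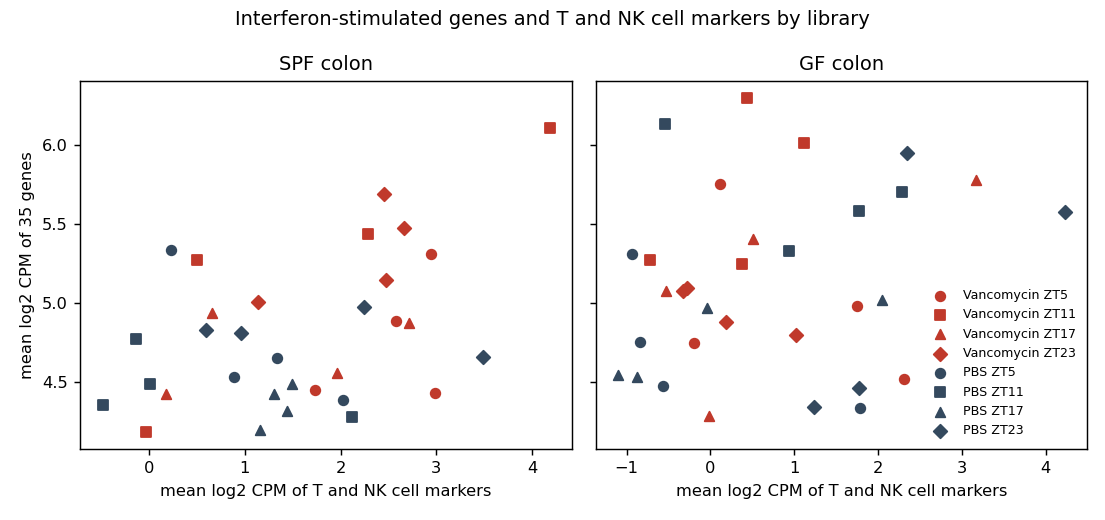
Mean log2 CPM of the 35 genes (vertical) against that of T and NK cell markers (horizontal), 1 point for each library, coloured by treatment and shaped by time. The SPF vancomycin ZT11 library at 4.18 for the markers has the highest SPF value for the 35 genes, 6.11.

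Among the ISG15 system, ubiquitin ligases and ADP-ribosyl transferases, all 8 genes had positive SPF fold changes over all times, with a median of 0.34. An unadjusted p under 0.05 was found for 5, against 7.57% of all genes higher. Counts by role, here and below, are parts of the counts over the 35 genes and not separate results. Of all genes 48.8% had a positive fold change and 0.378% were called higher. Usp18 (ENSMUSG00000030107) had 2.26, 6.74 and 31.8 CPM (lowest, median, highest of 16) after vancomycin, against 2.41, 3.52 and 9.18 CPM after PBS. The difference was 1.04 ± 0.24 on the log2 scale (SE, edgeR), adjusted p = 0.0339. At ZT11 its vancomycin libraries held 10.8, 31.8, 2.26 and 14.6 CPM, against 3.52, 3.10, 3.37 and 3.29 CPM in PBS libraries. Vancomycin replicates 1, 2 and 4 were above all PBS libraries and replicate 3 was below them. At ZT17 the groups did not overlap, with 6.07, 5.70, 4.26 and 4.60 CPM after vancomycin against 3.69, 3.23, 4.13 and 2.42 CPM after PBS. At ZT23 Usp18 had 13.3, 10.5, 5.58 and 6.61 CPM against 5.81, 4.16, 3.33 and 4.57 CPM, and 3 of the 4 vancomycin libraries were above all PBS libraries. At ZT5 it had 2.74, 8.40, 6.88 and 8.44 CPM against 2.41, 3.51, 9.18 and 5.23 CPM, which overlapped. The call did not hold in every fit: it was lost in 13 of 32 fits that left out 1 library, where the fold change stayed between 0.87 and 1.15, and the highest adjusted p was 0.0646. The limma-voom test gave adjusted p = 0.141.

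Isg15, the ubiquitin-like protein that Usp18 removes, had a median of 18.3 CPM after vancomycin and 10.2 CPM after PBS in SPF colon, with a log2 fold change of 0.62 ± 0.30 that did not pass (adjusted p = 0.313). Herc6, the main ligase for ISG15 in mice, was at 0.53 ± 0.21. Parp14, an ADP-ribosyl transferase, was at 0.39 ± 0.11 (adjusted p = 0.0732), with 77.0, 123 and 181 CPM after vancomycin (lowest, median, highest) against 59.8, 87.9 and 125 CPM after PBS. Its partners Parp9 and Dtx3l, which form an ADP-ribosyl transferase and ubiquitin ligase pair, were at 0.29 ± 0.10 and 0.27 ± 0.10. Trim21, the Fc receptor and ligase that targets antibody-bound virus inside cells, was at 0.20 ± 0.12, and Trim25, a ligase acting on the RNA sensor RIG-I, was at 0.039 ± 0.081.

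The 4 IFIT genes, whose proteins bind viral RNA and hold back translation, had the highest median of any role in SPF colon, 0.81, with 4 of 4 positive and 0 called. Ifit3b had 1.26, 2.97 and 10.6 CPM after vancomycin (lowest, median, highest of 16) against 1.09, 1.75 and 4.09 CPM after PBS, a difference of 0.91 ± 0.25 with adjusted p = 0.0701. At ZT23 it had 7.18, 6.16, 8.87 and 2.35 CPM after vancomycin against 2.2, 1.82, 1.40 and 1.69 CPM after PBS, so the groups did not overlap. They overlapped at ZT11, with 4.34, 10.6, 1.26 and 4.42 CPM after vancomycin against 1.63, 1.27, 2.70 and 3.29 CPM after PBS, where vancomycin replicate 2 was again the highest and replicate 3 the lowest. They also overlapped at ZT5, with 1.37, 1.91, 2.84 and 4.12 CPM after vancomycin against 1.55, 1.40, 4.09 and 1.20 CPM after PBS, and at ZT17, with 2.79, 3.10, 2.26 and 2.78 CPM after vancomycin against 3.07, 2.08, 2.46 and 1.09 CPM after PBS. Its near-copy Ifit3 was at 1.00 ± 0.30 (adjusted p = 0.102), with medians of 2.92 and 1.36 CPM after vancomycin and PBS. Ifit2 was at 0.66 ± 0.21 (adjusted p = 0.111), and Ifit1 at 0.71 ± 0.29 (adjusted p = 0.226).

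Of the 6 transcription factors and nuclear regulators, 4 had positive SPF fold changes, 4 were higher at an unadjusted p under 0.05 (7.57% of all genes) and 0 were called. Nlrc5, the activator of MHC class I genes, had the highest fold change of the 35 genes at 1.14 ± 0.45 but also a wide spread, 0.252 to 53.0 CPM after vancomycin against 1.38 to 26.2 CPM after PBS (adjusted p = 0.219). Sp100, a nuclear body protein, was at 0.65 ± 0.26. Irf9 and Stat2, the partners in the type I interferon complex, were at 0.38 ± 0.12 and 0.28 ± 0.08. Their levels were 32 to 97.5 CPM and 46.3 to 87.0 CPM after vancomycin, against 28.8 to 61.5 CPM and 39.5 to 73.4 CPM after PBS. Irf1, a target of interferon gamma, was at -0.0069 and Irf7, the amplifier of interferon alpha production, at -0.0012.

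Among the nucleic acid sensors and helicases, 5 of 6 were positive (median 0.18) and 0 were called. Zbp1, a sensor of Z-form nucleic acid that can start necroptosis, was at 0.69 ± 0.20 (adjusted p = 0.0947), with 9.57, 34.2 and 63.8 CPM after vancomycin (lowest, median, highest) against 10.6, 20.8 and 30.6 CPM after PBS. Dhx58, which tunes RIG-I-like sensing, was at 0.40 ± 0.18, Znfx1, a helicase that binds viral RNA, at 0.19 ± 0.07, and Eif2ak2, the kinase PKR, at 0.17 ± 0.09. Ifih1, the sensor MDA5, was at 0.15 ± 0.13, and Helz2 at -0.0046.

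All 11 other effectors were positive in SPF colon (median 0.42), 8 were higher at an unadjusted p under 0.05 (7.57% of all genes) and 0 were called. Bst2, which tethers enveloped virus to the cell surface, had 14, 33.9 and 92.5 CPM after vancomycin (lowest, median, highest of 16) against 15.1, 24.8 and 35.9 CPM after PBS. Its difference was 0.70 ± 0.18 with adjusted p = 0.0529, and it passed in the fit with a stricter count minimum of 50 (adjusted p = 0.0474) and in DESeq2. At ZT11 Bst2 had 34.1, 92.5, 18 and 83.2 CPM after vancomycin against 17.6, 26.6, 15.1 and 19.9 CPM after PBS, again with vancomycin replicate 3 inside the PBS range. At ZT23 it had 67.7, 74.2, 34.5 and 33.7 CPM after vancomycin against 31.9, 35.9, 27.3 and 31.2 CPM after PBS, where replicates 1 and 2 were above all PBS libraries. Bst2 overlapped at the other times too, with 22.1, 41.8, 31.6 and 44.0 CPM after vancomycin against 26.1, 23.1, 35.2 and 33.8 CPM after PBS at ZT5 and 29.5, 27.9, 23.3 and 14 CPM after vancomycin against 18.8, 16.4, 18.4 and 23.4 CPM after PBS at ZT17. Ifi47, itself an immunity-related GTPase by family, was at 1.12 ± 0.31 (adjusted p = 0.0812), and Xaf1, which promotes cell death, at 0.53 ± 0.15 (adjusted p = 0.0844). Ifi44 was at 0.57 ± 0.37, Rtp4 at 0.56 ± 0.22, and Cmpk2, the mitochondrial nucleotide kinase beside Rsad2, at 0.42 ± 0.28. Samd9l, Lgals3bp, Epsti1 and Ifi35 lay between 0.27 and 0.37, and Rsad2, whose product viperin makes a chain-ending nucleotide, at 0.30 ± 0.20.

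**Figure D3:**
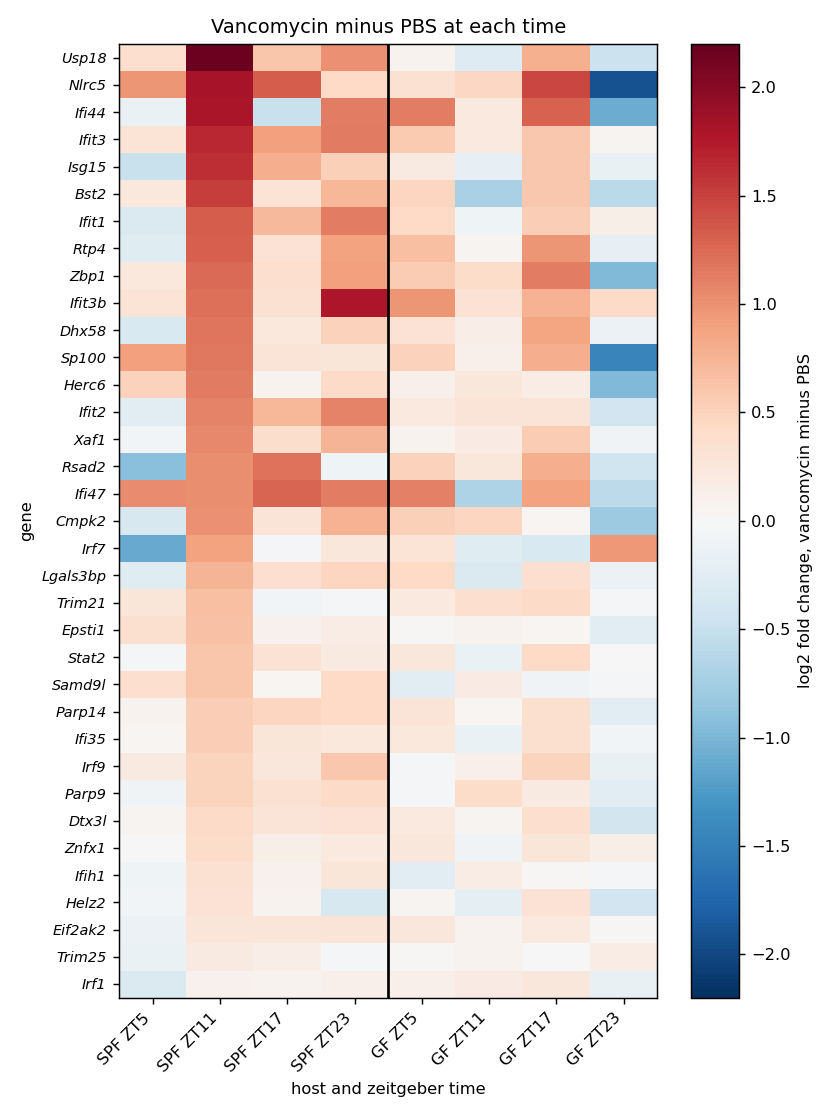
Log2 fold change, vancomycin minus PBS, of the 35 genes (rows, by their SPF ZT11 value) at each time in SPF (left 4 columns) and GF colon (right 4). All 35 are positive at SPF ZT11, 17 of 35 at SPF ZT5 and 7 of 35 at GF ZT23.

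Time by time, the SPF difference was widest at ZT11. There all 35 genes were positive, with a median of 1.00 and a range of 0.097 (Irf1) to 2.16 (Usp18), and 28 of the 35 had their largest difference at this time. edgeR called 0 of 35, against 0% of all genes, and DESeq2 called 2 (Bst2 and Usp18), against 0.602% of all genes, while 26 had an unadjusted p under 0.05 and were higher, against 5.32% of all genes. Usp18 was at 2.16 ± 0.49 (adjusted p = 0.105) and Bst2 at 1.52 ± 0.36 (adjusted p = 0.125). Lgals3bp, a secreted galectin-binding protein, had 169, 169, 118 and 261 CPM after vancomycin against 114, 89.2, 110 and 114 CPM after PBS, and its groups did not overlap. Irf7 was the other gene without overlap (2 of 35, against 3.03% of all genes). Leaving out vancomycin replicate 3 gave 6 called genes at ZT11 (Bst2, Dhx58, Ifi35, Stat2, Usp18 and Xaf1), against 0.644% of all genes, and a median of 1.27, and leaving out vancomycin replicate 2 gave 0 and a median of 0.47.

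At ZT5 the median was -0.024 and 17 of 35 were positive. Leaving out 1 library moved this median between -0.12 and 0.25, the highest without PBS replicate 3, so its sign rests on single libraries. None was called (0 of 35, against 0.0827% of all genes). At an unadjusted p under 0.05, 0 were higher (6.4% of all genes) and 2 lower (7.76%), Irf7 at -1.10 ± 0.37 and Rsad2 at -0.92 ± 0.41. Irf7, Nlrc5 and Sp100 had groups that did not overlap (3 of 35, against 8.74% of all genes), the last 2 higher after vancomycin. At ZT17 the median was 0.29, 32 were positive, 0 were called (0.319% of all genes) and 2 were higher at an unadjusted p under 0.05 (3.78%), Rsad2 at 1.19 ± 0.42 and Parp14 at 0.48 ± 0.21. The groups of Parp9 and Usp18 did not overlap there (2 of 35, against 5.89% of all genes). At ZT23 the median was 0.44, 31 were positive, 0 were called (0% of all genes) and 9 were higher at an unadjusted p under 0.05 (2.99%). Ifit3b was at 1.79 ± 0.50, Ifit2 at 1.09 ± 0.41, Xaf1 at 0.75 ± 0.30 and Irf9 at 0.60 ± 0.24, and these 4 did not overlap between groups (4 of 35, against 5.12% of all genes). Without ZT11, a fit chosen after the data were seen, 0 of the 35 were called over the other 3 times, against 0.307% of all genes, with 31 positive, a median of 0.23 and 10 higher at an unadjusted p under 0.05, against 5.59% of all genes. The F test for a vancomycin difference that varies with time called 0 of 35 (0.36% of all genes). At an unadjusted p under 0.05 it took 3 (9.79% of all genes), Rsad2 (adjusted p = 0.232), Irf7 (adjusted p = 0.307) and Lgals3bp (adjusted p = 0.496).

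Irf7 and Rsad2, the 2 genes with the smallest interaction p in SPF colon, are given by time. Irf7 had 117, 50.7, 102 and 146 CPM after vancomycin at ZT5 against 186, 246, 294 and 167 CPM after PBS, with every vancomycin library below every PBS library. At ZT11 it had 197, 262, 174 and 206 CPM after vancomycin against 103, 37.2, 147 and 165 CPM after PBS, with every vancomycin library above every PBS library. The differences at these 2 times had opposite signs. At ZT17 it had 61.1, 75.3, 88.1 and 50.8 CPM against 24.7, 91.5, 80.1 and 85.7 CPM, and at ZT23 202, 194, 132 and 130 CPM against 137, 191, 139 and 90.0 CPM, each pair overlapping. The time of day test passed for Irf7 after vancomycin (adjusted p = 0.0227) and after PBS (adjusted p = 0.0255). These calls were lost without vancomycin ZT17 replicate 1 or 4 (highest adjusted p = 0.0613) and without PBS ZT5 replicate 2 or 3 (highest adjusted p = 0.0704).

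Rsad2 had 13.2, 15.6, 34.7 and 30.2 CPM after vancomycin at ZT5 against 28.7, 44.6, 69.9 and 33.9 CPM after PBS. At ZT17 it had 11.3, 29.9, 20.9 and 30.4 CPM after vancomycin against 4.30, 17.7, 11.2 and 7.26 CPM after PBS. At ZT11 it had 42.0, 49.8, 20.5 and 78.6 CPM after vancomycin against 20.5, 14.9, 33.3 and 25.1 CPM after PBS, and at ZT23 48.6, 33.0, 27.5 and 28.3 CPM after vancomycin against 27.4, 44.3, 33.6 and 42.1 CPM after PBS. All 4 times overlapped, and the PBS mean was the highest of the SPF PBS times at ZT5 and the lowest at ZT17. Its time of day test passed after PBS (adjusted p = 0.0105, kept in 16 of 16 fits that left out 1 library) and not after vancomycin (adjusted p = 0.187), and whether these courses differ is the interaction above, which did not pass. Ifit2 had means of 10.3, 30.5, 13.5 and 22.8 CPM at ZT5, ZT11, ZT17 and ZT23 after vancomycin, and 12.2, 14.4, 8.14 and 10.7 CPM after PBS. At ZT11 the libraries held 38.1, 52.7, 10.5 and 21 CPM after vancomycin against 8.77, 8.5, 21.6 and 18.8 CPM after PBS, which overlapped, and at ZT23 26, 28.9, 15.4 and 20.7 CPM after vancomycin against 13.8, 11.3, 9.65 and 8.03 CPM after PBS, which did not. At ZT5 they held 6.04, 9.72, 9.43 and 16 CPM after vancomycin against 7.57, 12.2, 20.7 and 8.44 CPM after PBS, and at ZT17 7.34, 17.6, 18.9 and 10.3 CPM after vancomycin against 8.42, 6.84, 9.58 and 7.72 CPM after PBS, overlapping at both. The time of day test of Ifit2 passed after vancomycin (adjusted p = 0.0399) but in 6 of 16 fits that left out 1 library, and not after PBS (adjusted p = 0.499).

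**Figure D4:**
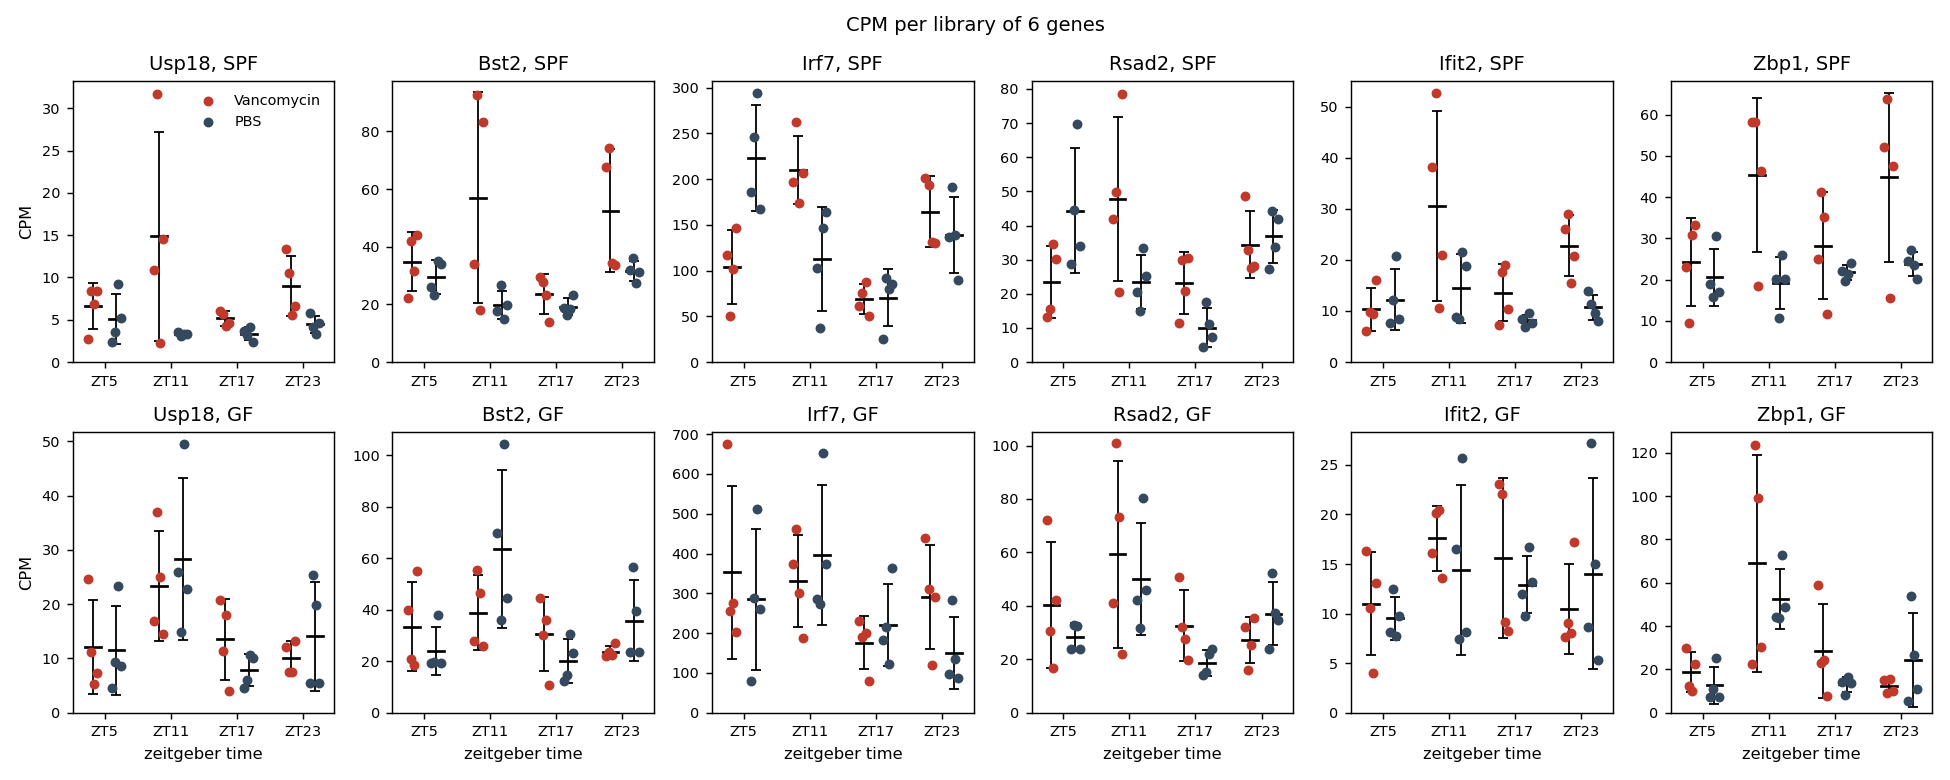
CPM in each library (points) of Usp18, Bst2, Irf7, Rsad2, Ifit2 and Zbp1 by zeitgeber time, SPF above and GF below, vancomycin left of PBS, with the mean (bar) and SD of 4 libraries. Irf7 in SPF colon lies below PBS at ZT5 and above it at ZT11, and Zbp1 in GF colon is highest at ZT11 in both treatments.

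Across the 35, time of day was called for 2 genes in SPF colon after vancomycin (Irf7 and Ifit2), against 8.2% of all genes, and 11 had an unadjusted p under 0.05, against 24.1%. After PBS 2 were called (Irf7 and Rsad2), against 8.9%, and 5 had an unadjusted p under 0.05, against 25.7%. By group mean, 20 genes were highest at ZT23, 14 at ZT11 and 1 at ZT5 after vancomycin in SPF colon, and 20 were highest at ZT23, 12 at ZT5 and 3 at ZT11 after PBS. The smooth muscle markers also moved with time in SPF colon, 8 of 8 passing the time of day test after each treatment, and the part of tissue sampling in the times was not tested.

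In GF colon 0 of 35 genes were called by edgeR over all times, against 0% of all genes, 0 by DESeq2 (0.0295% of all genes) and 0 by limma-voom (0%). Of the 35, 28 were positive, with a median of 0.10 against 0.0067 over all genes, and 2 were higher at an unadjusted p under 0.05, against 2.09% of all genes. The median was 0.054 without GF vancomycin ZT5 replicate 1 and 0.19 without GF PBS ZT5 replicate 3. The 2 genes were Ifit3b, with 1.88, 4.05 and 10.7 CPM after vancomycin (lowest, median, highest of 16) against 1.26, 3.06 and 10.2 CPM after PBS, and Trim21, with 10.5, 13.7 and 24.8 CPM against 9.52, 12.4 and 20.6 CPM. Their fold changes were 0.62 ± 0.25 and 0.24 ± 0.10 (both adjusted p = 1.00). Znfx1, next by p, was at 0.15 ± 0.09, with 57.5, 74.9 and 99.0 CPM after vancomycin against 42.3, 68.8 and 111 CPM after PBS. The GF Ifit3b libraries overlapped at every time, with 5.76, 1.98, 2.83 and 3.86 CPM after vancomycin against 2.00, 1.26, 1.59 and 2.46 CPM after PBS at ZT5 and 6.76, 9.19, 6.65 and 1.88 CPM after vancomycin against 3.30, 2.82, 4.19 and 4.08 CPM after PBS at ZT17, and at ZT11 vancomycin replicate 2 (10.7 CPM) and PBS replicate 3 (10.2 CPM) were alike. Trim21 did not overlap at ZT17 (1 of 35, against 2.02% of all genes), with 17.9, 13.5, 13 and 13 CPM after vancomycin against 11.6, 9.52, 12.0 and 9.54 CPM after PBS, and overlapped at the other times. Usp18 had 3.99, 12.7 and 36.9 CPM against 4.56, 10.4 and 49.5 CPM (lowest, median, highest), a difference of 0.026 ± 0.28, and Bst2 was at -0.060 ± 0.21. By role, the medians were 0.31 for the IFIT genes, 0.14 for the sensors, 0.097 for the transcription factors, 0.093 for the other effectors and 0.069 for the ISG15 system and ligases. With the Y-linked level as a covariate 0 of 35 were called and the median was 0.12. In GF colon 14 of 16 tested T and NK cell markers and 12 of 12 B cell markers had a negative fold change (medians -0.41 and -1.07, 0 called), the opposite sign to SPF.

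At single times 0 of 35 genes were called in GF colon at ZT5, ZT11, ZT17 and ZT23, against 0% of all genes each time. The medians were 0.25 at ZT5, 0.11 at ZT11, 0.43 at ZT17 and -0.17 at ZT23, with 31, 24, 32 and 7 of 35 positive. Single libraries decided the sign at 3 of these times: the median was -0.025 at ZT5 without vancomycin replicate 1, -0.10 at ZT11 without vancomycin replicate 2, and 0.090 at ZT23 without PBS replicate 2. At ZT17 it stayed positive when any 1 library was left out, at 0.24 (without vancomycin replicate 1) to 0.58. At an unadjusted p under 0.05, 0 were higher at ZT5 (2.09% of all genes), 0 at ZT11 (2.87%) and 0 at ZT17 (2.28%). At ZT23, 2 were lower (6.93%), Sp100 at -1.46 ± 0.55 and Nlrc5 at -1.92 ± 0.81. Sp100 had 20.7, 19, 40.7 and 22.7 CPM after vancomycin there against 33.1, 90.3, 135 and 25.9 CPM after PBS, and PBS replicates 2 and 3 were also the 2 highest of their group for T and NK cell markers (2.34 and 4.23) and for the mean of the 35 genes (5.95 and 5.58). Other GF groups differed in this. Vancomycin ZT17 replicate 1 was the highest of its group for the markers (3.17) and for the 35 genes (5.78). PBS ZT11 replicate 3 was the lowest for the markers (-0.54) and the highest for the 35 genes (6.13). The interaction with time called 0 (0% of all genes), and 3 had an unadjusted p under 0.05 (8.29%), Sp100, Nlrc5 and Ifi47.

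The SPF difference was then set against the GF difference in 1 fit of both tables. SPF minus GF was positive for 31 of 35 genes, with a median of 0.28 against -0.014 over all genes, and 0 were called (0% of all genes). DESeq2 also called 0 (0.0964% of all genes). The median was 0.18 without SPF vancomycin ZT11 replicate 2. At an unadjusted p under 0.05, 5 were higher in SPF, against 5.14% of all genes: Bst2 at 0.76 ± 0.28 (adjusted p = 0.424), Usp18 at 1.01 ± 0.38 (adjusted p = 0.424), Ifi47 at 0.93 ± 0.42, Samd9l at 0.41 ± 0.20 and Epsti1 at 0.33 ± 0.16. The vancomycin difference was thus not shown to differ between SPF and GF colon for any of the 35 genes.

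In GF colon the 35 genes had their highest group means at ZT11 in both treatments. The mean log2 CPM of the 35 genes was 5.00 ± 0.54 at ZT5, 5.71 ± 0.53 at ZT11, 5.14 ± 0.64 at ZT17 and 4.96 ± 0.14 at ZT23 after vancomycin (SD, n = 4). After PBS it was 4.72 ± 0.43 at ZT5, 5.69 ± 0.33 at ZT11, 4.77 ± 0.26 at ZT17 and 5.08 ± 0.80 at ZT23. By group mean 33 of 35 genes were highest at ZT11 after vancomycin and 31 of 35 after PBS. The F test called 0 after vancomycin (0.142% of all genes) and 0 after PBS (0.142%), with 6 (9.51% of all genes) and 19 (14.7%) at an unadjusted p under 0.05.

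A contrast of ZT11 with the mean of the other 3 times over both treatments was added after this was seen. It uses the same genes and libraries that prompted it, so its signs, counts and p-values are no separate support for the ZT11 pattern. This holds for its GF minus SPF form as well. The 35 are co-regulated genes, so a count of them is no replicate. In GF colon all 35 genes were positive (median 0.62), 1 was called against 0.0767% of all genes called higher, and 28 were higher at an unadjusted p under 0.05, against 5.62%. The called gene was Zbp1 (ENSMUSG00000027514), at 1.80 ± 0.32 (adjusted p = 0.00842). Its ZT11 libraries had 22.5, 124, 99.2 and 30.2 CPM after vancomycin and 44.0, 43.9, 72.9 and 48.6 CPM after PBS, against 5.62, 13.8 and 59.2 CPM (lowest, median, highest) in the 24 libraries of the other times. Some libraries of the other times reached the ZT11 range, the highest being vancomycin ZT17 replicate 1 (59.2 CPM) and PBS ZT23 replicate 2 (53.9 CPM). At ZT5 Zbp1 had 29.8, 12.4, 9.80 and 22.7 CPM after vancomycin against 7.06, 11, 25.3 and 7.26 CPM after PBS, at ZT17 59.2, 22.9, 24.3 and 7.52 CPM after vancomycin against 14, 8.23, 16.3 and 13.5 CPM after PBS, and at ZT23 14.9, 9, 15.6 and 10.1 CPM after vancomycin against 5.62, 53.9, 26.5 and 10.7 CPM after PBS. The 2 highest vancomycin libraries at ZT11 were replicates 2 and 3. Ifi44 was at 1.91 ± 0.44 (adjusted p = 0.0751), Isg15 at 1.43 ± 0.33 (adjusted p = 0.0759), Rtp4 at 1.20 ± 0.28 (adjusted p = 0.0762) and Lgals3bp at 0.82 ± 0.18 (adjusted p = 0.0510). Usp18 was at 1.19 ± 0.31 and Rsad2 at 0.87 ± 0.23, while Samd9l, at 0.10 ± 0.17, was the lowest.

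**Figure D5:**
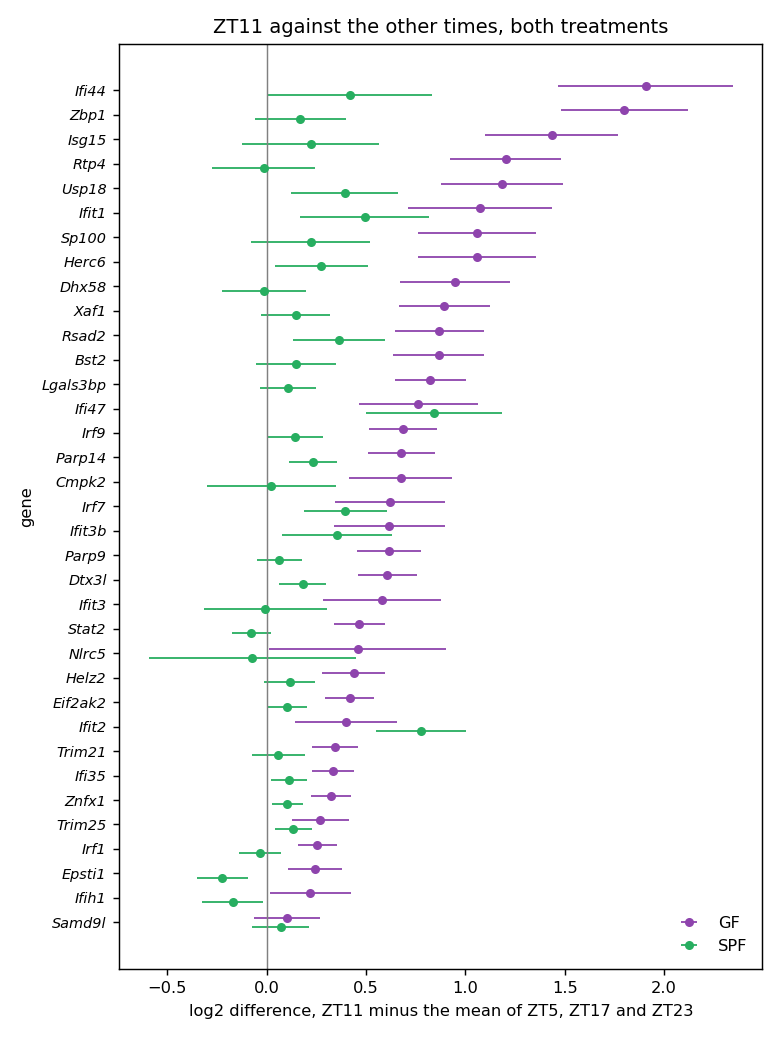
Log2 difference between ZT11 and the mean of ZT5, ZT17 and ZT23 over both treatments for each of the 35 genes, GF above SPF in each row, with SE. In GF colon all 35 lie above 0, up to 1.91 for Ifi44 and 1.80 for Zbp1.

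The same contrast in SPF colon had a median of 0.14, with 27 of 35 positive. The median was 0.020 without SPF vancomycin ZT11 replicate 2, 0.090 without PBS ZT11 replicate 3, and -0.056 with the Y-linked level as a covariate. That level was 5.66 to 6.08 in all SPF libraries, and its SPF group means were highest at ZT11 (5.97 after vancomycin, 5.93 after PBS). The covariate thus overlaps with ZT11 in SPF colon, and that fit cannot tell them apart. Only 1 of 35 was called, Ifit2 at 0.78 ± 0.23 (adjusted p = 0.0169), against 11.1% of all genes called higher, and 2 were higher at an unadjusted p under 0.05, against 17.3%. GF minus SPF was positive for 33 of 35 genes with a median of 0.54, and 14 were higher at an unadjusted p under 0.05, against 10.5% of all genes. Only 1 of 35 was called, Zbp1 at 1.63 ± 0.43 (adjusted p = 0.0256), against 2.31% of all genes called higher. The 8 GF ZT11 libraries follow each other in library number, as do those of each other time, so the order of the libraries and the time cannot be told apart. The SPF libraries are numbered in the same way. In both SPF and GF the libraries of each treatment at a time also follow each other, PBS before vancomycin. Library order and treatment thus cannot be told apart within a time either. Low Y-linked levels were found in 1 of 8 GF libraries at ZT11 and 10 of 24 at the other times. With the Y-linked level as a covariate the GF median was 0.63 and 0 genes were called, and with colon position it was 0.60 and 0 were called. The distal Hox mean was uneven over the GF groups. After vancomycin and PBS it was 3.56 and 3.09 at ZT11, and 1.41 and 1.66 at ZT5. It was 3.36 and 1.88 at ZT17, and 2.10 and 3.51 at ZT23. Colon position and time thus overlap in part in GF colon. The part of position in the ZT11 difference was not tested beyond this fit. With T and NK cell markers as a covariate the GF median was 0.67 and 3 were called (Lgals3bp, Sp100 and Zbp1), against 0.295% of all genes. Leaving out GF vancomycin ZT11 replicate 2 ended the call of Zbp1 in GF colon (adjusted p = 0.0599). The call of Zbp1 for GF minus SPF was lost without GF vancomycin ZT11 replicate 2 or 3, GF PBS ZT11 replicate 2 or SPF PBS ZT11 replicate 4 (highest adjusted p = 0.0791). The SPF call of Ifit2 was lost without SPF vancomycin ZT11 replicate 2 or SPF PBS ZT11 replicate 3 or 4 (highest adjusted p = 0.0790).

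Other interferon genes were set beside the 35 in SPF colon over all times, by lists that also came with earlier results known. Against 0.378% of all genes, 6 of 21 interferon-induced GTPases were called higher (median 0.82), as was 1 of 8 OAS genes, Oas2 at 1.68 ± 0.36 (median of the list 0.43). Of 6 interferon gamma targets 2 were called, the chemokines Cxcl9 at 2.41 ± 0.45 (adjusted p = 0.0154) and Cxcl11 at 2.33 ± 0.52 (adjusted p = 0.0337), with 6 of 6 positive and a median of 1.60. Of 12 tested sensing adaptors 0 were called (median 0.13). By edgeR 0 genes of any of these lists were called in GF colon over all times.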

How the data were processed

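Colon RNA was sequenced as poly(A) libraries with single-end reads of 75 cycles, per the labels' protocols. The deposited values are estimated counts per gene, which the authors made with Trim Galore 0.6.2, cutadapt 3.5 and Salmon on GRCm39, per the submitters' processing notes. The file names call them normalized. The values are not whole and their library totals differ, and they were used as estimated counts, rounded to whole numbers. Totals of 10044032 to 15736087 per library limit precision for the genes of few CPM.

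Genes with at least 10 counts in 4 libraries were kept, and each table was scaled by TMM. edgeR 4.0.16 (R 4.3.3) fitted group means with the quasi-likelihood test. P-values were adjusted by Benjamini-Hochberg over all genes, with a threshold of 0.05. The SE is the absolute log2 fold change over the square root of F and is unreliable near 0. SPF minus GF was fitted over both tables on the 16604 genes tested in each, and levels of the separately made tables were not tested against each other. DESeq2 1.42.0, limma 3.58.1 (voom), other filters, covariates, the replicate block and leaving out each library were alternatives. The fits were checked on simulated data. Full values were given for genes called in any comparison and for the 3 of smallest p in SPF and in GF over all times; other genes given in full were chosen after their values were seen. The 35 genes and the other lists were chosen with earlier results of these data known.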

Additional observations from a re-analysis of the deposited data

Results flagged for a closer look

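In each group of 4 libraries the highest or lowest library was set against the others for 9 genes and the mean of the 35, 160 groups in all. A gap to the nearest library above Dixon's 95% critical value, as a share of the range, was found in 9 groups, where chance gives about 1 in 20 groups. Irf7 was at 675 CPM in GF vancomycin ZT5 replicate 1, against 202 to 277 CPM in the other replicates, and at 24.7 CPM in SPF PBS ZT17 replicate 1, against 80.1 to 91.5 CPM. Trim21 was at 33.7 CPM in SPF vancomycin ZT11 replicate 2 (others 13.2 to 14.7 CPM), 17.9 CPM in GF vancomycin ZT17 replicate 1 (others 13 to 13.5 CPM) and 12.9 CPM in GF PBS ZT5 replicate 1 (others 10.1 to 10.4 CPM). Bst2 was at 38.1 CPM in GF PBS ZT5 replicate 3, against 19.3 to 19.6 CPM in the others. Ifit3b was at 4.09 CPM in SPF PBS ZT5 replicate 3, against 1.20 to 1.55 CPM. Ifit2 was at 17.2 CPM in GF vancomycin ZT23 replicate 4, against 7.66 to 9 CPM. Zbp1 was at 72.9 CPM in GF PBS ZT11 replicate 3, against 43.9 to 48.6 CPM.

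The ZT11 difference of Zbp1 from the other times was 1.63 higher on the log2 scale in GF than in SPF colon, by the edgeR test of the difference between hosts (adjusted p = 0.0256). That contrast was chosen after the data were seen, from the same libraries, so its p-value is no separate support. It called 1 of the 35 genes higher, against 2.31% of all genes, and the call was lost in 4 of 64 fits that left out 1 library.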

How the results depend on the processing

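Called differences of a single contrast (Usp18, Ifit2 and Zbp1) kept their direction when any 1 library was left out, while the time of day F tests have no single direction. The count of the 35 genes called over all times in SPF colon, 1, was 10 by DESeq2 (Bst2, Ifi35, Ifi47, Ifit2, Ifit3, Ifit3b, Parp14, Usp18, Xaf1 and Zbp1; 2.91% of all genes), 2 with a count minimum of 50 (1.2%), and 0 by limma-voom, over ZT5, ZT17 and ZT23 only, with the replicate block, or with B cell, macrophage and dendritic cell, T and NK cell, smooth muscle, Y-linked or colon position (Hox genes) covariates. At SPF ZT11 DESeq2 called 2 instead of 0 (0.602% of all genes). For time of day after vancomycin in SPF colon the 2 calls became 1 by limma-voom, 1 with the replicate block and 0 with a cosine curve. For GF ZT11 against the other times the 1 call became 13 by DESeq2 (0.838% of all genes), 5 by limma-voom (0.254%), 3 with B cell, macrophage and dendritic cell or T and NK cell covariates, 2 with smooth muscle or the count minimum of 50, and 0 with colon position or Y-linked. For the same contrast in SPF it became 2 with B cell, macrophage and dendritic cell or T and NK cell covariates and 0 by limma-voom or with colon position, smooth muscle or Y-linked. Without covariates, 11.1% of all SPF genes and 0.0767% of all GF genes were called higher in this contrast by edgeR. For GF minus SPF it became 4 by DESeq2 (7.22% of all genes). Where a count stands without a share of all genes, it does not show whether the 35 genes moved apart from the rest. The cause of these shifts was not tested. In SPF colon the Y-linked level was 5.66 to 6.08 in every library, so SPF fits with it do not separate low from high libraries. The fit without ZT11 and all fits of ZT11 against the other times were chosen after seeing the data.

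Leaving out 1 library gave 0 to 14 calls over all times in SPF (14, with 3.06% of all genes, without SPF vancomycin ZT11 replicate 3). At SPF ZT11 it gave 0 to 6 (6, with 0.644%, without the same library). For time of day in SPF it gave 0 to 8 after vancomycin (8, with 7.64%, without SPF vancomycin ZT11 replicate 3). After PBS these were 1 to 2 (2, with 8.88%, without SPF PBS ZT11 replicate 1). For GF ZT11 against the other times there were 0 to 12 (12, with 0.331%, without GF vancomycin ZT5 replicate 1). The same contrast in SPF had 0 to 2 (2, with 17.9%, without SPF PBS ZT11 replicate 1). Its GF minus SPF had 0 to 6 (6, with 5.51%, without SPF vancomycin ZT11 replicate 2), and the other comparisons had 0 to 0. The Usp18 call was lost without SPF PBS ZT5 replicate 2, ZT11 replicate 1 or 4, ZT17 replicate 4 or ZT23 replicate 2 or 3, and without SPF vancomycin ZT5 replicate 2 or 4, ZT11 replicate 2, ZT17 replicate 1 or 2 or ZT23 replicate 1 or 2. The same-numbered libraries correlated above 0.1 in 5 of 16 SPF pairs and 6 of 16 GF pairs. Libraries of unlike number were not set beside them, so whether the numbers pair the samples was not tested. With the replicate block Usp18 was at 1.00 (adjusted p = 0.0515).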
